A study of Mus musculus with 20 samples.

Results

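The genes described here are the vascular lipases Lpl, Lipc and Lipg, the lipase inhibitor Angptl4, the receptors Scarb1, Cd36 and Lrp1, and the plasma lipid-transfer and cholesterol-esterifying proteins Lcat and Pltp. They were chosen by gene symbol, as the probe sets whose only symbol in the platform annotation was 1 of these 9 names, with the brightest probe set taken for each gene. Of the 9 genes, 8 had such a probe set, 1 each, among 19938 named genes in all. Lipc, hepatic lipase, is not analysed here.

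Liver RNA was measured on Affymetrix whole-transcript arrays, 1 array for each of 20 male mice. There were 5 mice of each of 4 inbred strains: NZO/Hl (NZO below), C57/Bl6 (B6 below), C3H from the Jackson Laboratory, and 129P2/OlaHsd (129P2 below). NZO is an obese, diabetes-prone strain. All animals were 6 weeks old and had been fed a high-fat diet, with 45% of its energy from fat, from weaning at day 21. No group ate another diet, so the strains were compared on this diet only. No label gives body weight, plasma lipids or liver fat.

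Lipids travel in blood as lipoprotein particles. Lipases at the vessel wall release fatty acids from them, receptors on liver cells take up the remaining particles or their cholesterol, and plasma enzymes remodel high-density lipoprotein (HDL). In liver, hepatocytes make most of the plasma proteins and take up remnants, while endothelial and other non-parenchymal cells also carry several of the receptors. Because whole liver was measured, fewer cells of a type and less RNA per cell cannot be told apart.

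Levels are on the log2 scale, where 1 unit is a 2-fold change in signal, and they are not compared between genes because each probe set has its own brightness. A value below the 40th percentile of its own array is called dim. Differences were tested with limma over 14190 genes and called at a Benjamini-Hochberg adjusted p under 0.05. The p-values set each difference against the spread between animals of a strain. With 1 array for each mouse, that spread holds animal and array variation together. Sequence differences between the strains under the probes were not tested.

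Hepatocyte markers were bright on all 20 arrays, and limma called 0 of 8 in any comparison (0 to 3 at an unadjusted p under 0.05). Of 11 liver endothelial markers, 8, 6 and 7 were lower in NZO when set against B6, C3H or 129P2. Their mean level ran from 8.28 to 8.74 in NZO, against 8.77 to 9.27 in B6, 8.67 to 9.05 in C3H and 8.75 to 9.14 in 129P2. Of 9 stellate cell markers, 5, 3 and 4 were lower in NZO, with mean levels of 8.35 to 8.67 in NZO, 8.66 to 9.30 in B6, 8.70 to 8.90 in C3H and 8.84 to 9.03 in 129P2. None of either list was higher in NZO. Over all tested genes, 6.64%, 3.09% and 4.61% were called lower in NZO against B6, C3H and 129P2. In either direction, 8.05% were called between C3H and B6 and 5.03% between C3H and 129P2. Of 12 Kupffer cell and macrophage markers, 4 were lower in C3H than in B6 (Adgre1, Csf1r, C1qc and Lyz2; list median -0.34) and 2 lower than in 129P2 (Adgre1 and Timd4; -0.39). Clec4f was lower in NZO than in B6 and 129P2, C1qa lower than in B6, and Lyz2 higher than in C3H. The mean level of that list ran from 8.55 to 8.81 in C3H, against 8.88 to 9.47 in B6, 8.61 to 9.32 in NZO and 8.62 to 9.65 in 129P2. The adipocyte markers Adipoq and Lep were dim on all 20 arrays, whereas Plin1 and Retn, the other measured ones, were dim on 0. Skeletal muscle markers were highest in B6 replicate 5 (mean 9.44) and C3H replicate 2 (9.0), against at most 8.19 on the other arrays. The spread of values (interquartile range) varied from array to array, and 49% of tested genes followed it within strains. Among the lipase and receptor genes, Cd36 alone followed it at the threshold (limma adjusted p = 0.00192).

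The clearest difference in this set was in the HDL receptor. Scarb1 was lower in NZO than in each of the other strains, at 52.4% to 62.2% of their signal. Cd36, a fatty acid translocase, was higher in 129P2 than in C3H and NZO, and higher in B6 than in C3H. Lpl, lipoprotein lipase, was lower in NZO than in C3H. No pairwise difference of Lipg, Angptl4, Lrp1, Lcat or Pltp passed the threshold. By limma's F-test over the 4 strains, 3 of the 8 measured genes were called, against 17% of all tested genes. Their adjusted p was 3.47e-06 for Scarb1, 0.00325 for Cd36 and 0.0413 for Lpl.

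**Figure D1:**
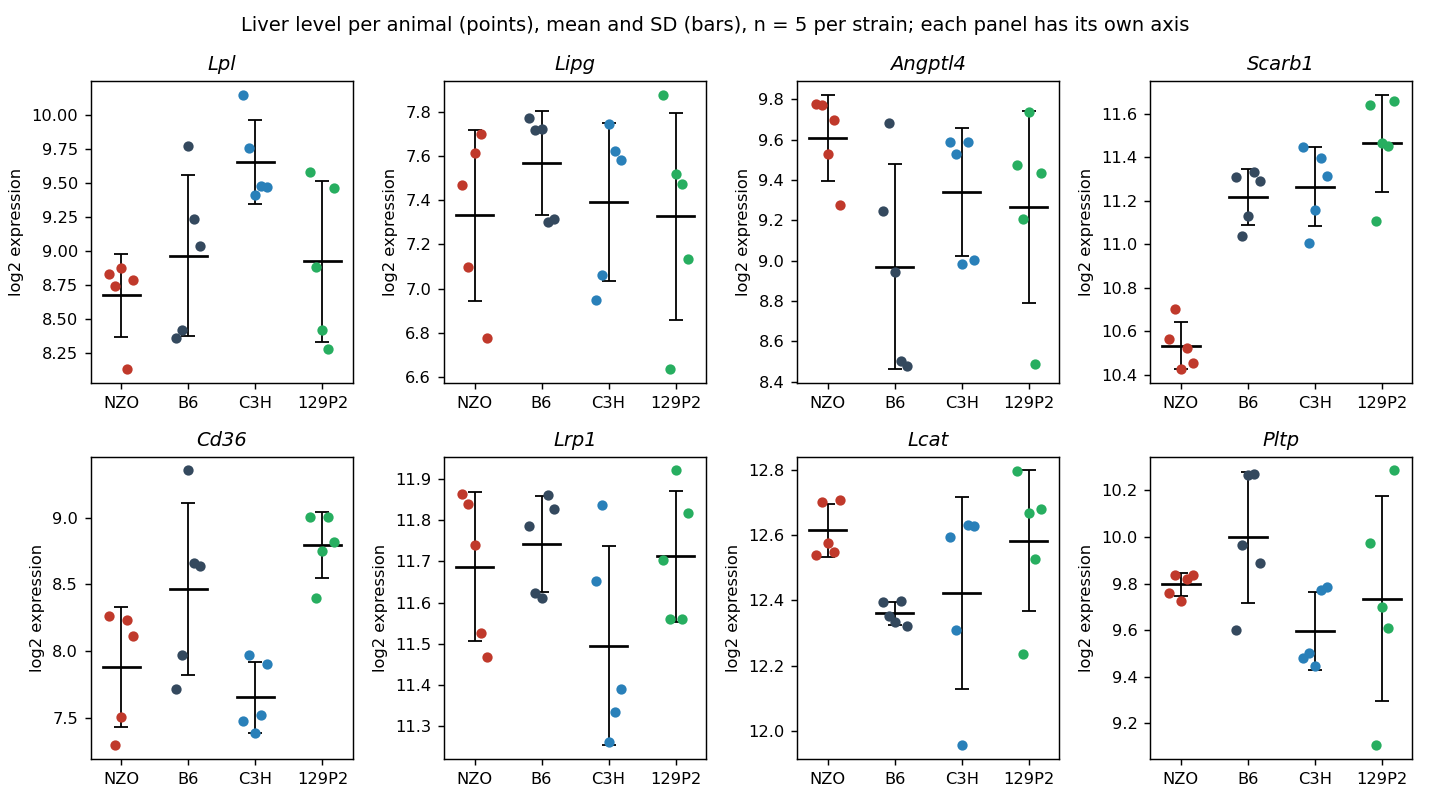
Log2 expression of the 8 measured genes in liver, with 1 point for each animal and bars for the mean and SD of 5 animals of each strain; every panel has its own vertical axis. The 5 NZO points of Scarb1 (10.42 to 10.70) lie below all points of the other strains, whereas the Lipg, Lrp1 and Pltp points of the 4 strains overlap.

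Counted by comparison, NZO differed from B6 in 1 of the 8 genes (Scarb1), where 10.3% of all tested genes were called. NZO differed from C3H in 2 (Lpl and Scarb1), with 6.6% of all genes called, and from 129P2 in 2 (Scarb1 and Cd36), with 8.9% called. In all 5 of these calls NZO was the lower strain, a direction in which 6.64%, 3.09% and 4.61% of all genes were called against B6, C3H and 129P2. C3H differed from B6 in 1 gene (Cd36; 8.05% of all genes) and from 129P2 in 1 (Cd36; 5.03%). Between 129P2 and B6, limma called 0 of the 8 genes, against 6.19% of all genes, and 1 gene, Scarb1, had an unadjusted p under 0.05. The median difference of the 8 genes was -0.22, 0.19 and -0.01 for NZO against B6, C3H and 129P2, within 0.01 of 0 over all genes. The 3 comparisons of each strain share its 5 animals.

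Values without any overlap between strains were found for 2 of the 8 genes between NZO and B6 (Scarb1 and Lcat; 9.32% of all genes), 2 between NZO and C3H (Lpl and Scarb1; 6.72%), 2 between NZO and 129P2 (Scarb1 and Cd36; 7.95%) and 1 between C3H and 129P2 (Cd36; 5.4%).

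**Figure D2:**
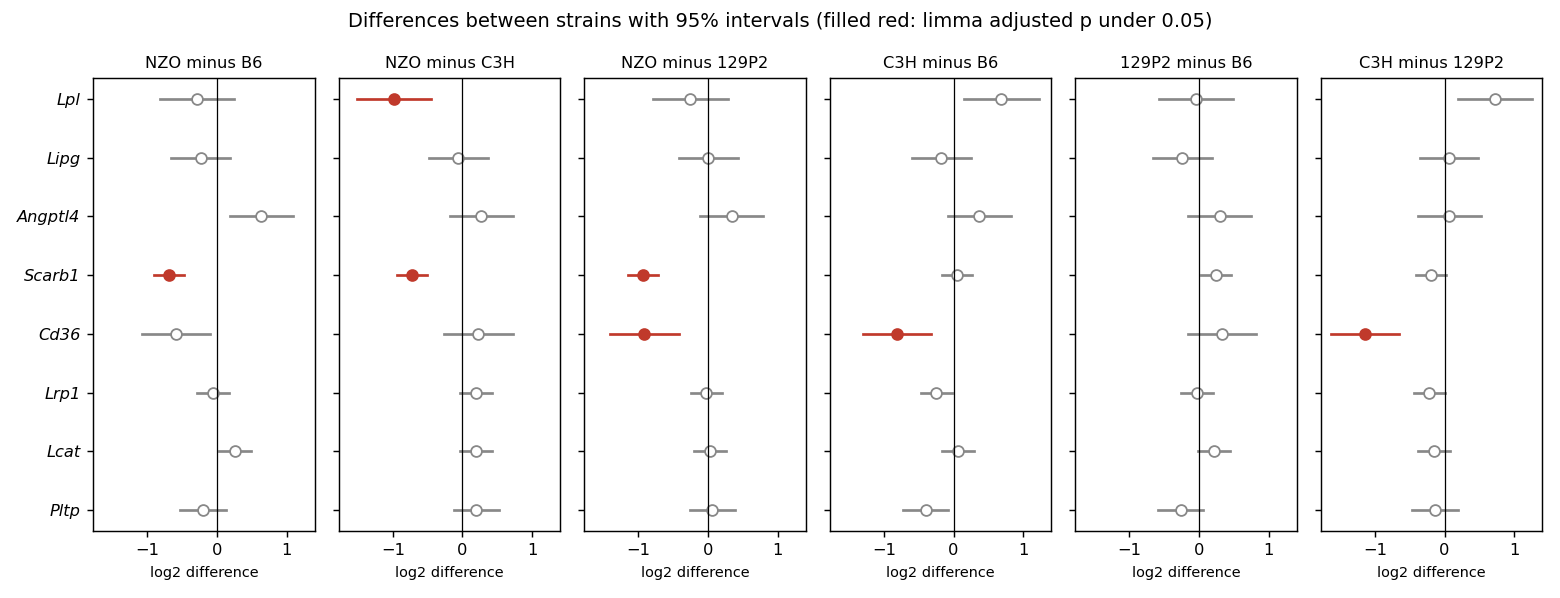
Log2 differences of the 8 genes in the 6 pairwise comparisons, as points with 95% intervals from the limma fit; filled red points passed an adjusted p of 0.05. Scarb1 was called in the 3 comparisons with NZO, Cd36 in 3 comparisons and Lpl in 1.

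Lpl hydrolyses the triglycerides of chylomicrons and very-low-density lipoprotein at the capillary wall. In adult liver it is normally low and comes partly from non-hepatocytes. The 5 NZO values were 8.83, 8.74, 8.88, 8.13 and 8.79 for replicates 1 to 5. In C3H they were 10.15, 9.75, 9.41, 9.48 and 9.47. All C3H animals were thus above all NZO animals. B6 gave 8.36, 8.42, 9.77, 9.23 and 9.03, and 129P2 gave 9.58, 8.88, 8.42, 8.27 and 9.46. These 2 strains spread over the range of both others and overlapped each of them.

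The strain means of Lpl, in rising order, were 8.67 ± 0.31 in NZO, 8.92 ± 0.59 in 129P2, 8.96 ± 0.59 in B6 and 9.65 ± 0.31 in C3H (SD, n = 5). NZO minus C3H was -0.98 ± 0.26 (SE, 95% interval -1.51 to -0.45, limma adjusted p = 0.0198), so the NZO signal was 50.7% of that in C3H. No neighbours in that order differed at the threshold. C3H minus B6 was 0.69 (0.15 to 1.22, limma adjusted p = 0.103) and C3H minus 129P2 was 0.73 (0.19 to 1.26, adjusted p = 0.122). NZO minus B6 was -0.29 (-0.83 to 0.24), NZO minus 129P2 was -0.25 (-0.79 to 0.28), and 129P2 minus B6 was -0.04 (-0.57 to 0.49), intervals that still hold differences of more than 0.4 on the log2 scale.

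The call of Lpl between NZO and C3H rested on single animals. Its limma adjusted p was 0.0704 without C3H replicate 1 and 0.0689 without NZO replicate 4, the lowest NZO value. Without B6 replicate 3, its highest B6 value, C3H minus B6 was called instead (0.89, limma adjusted p = 0.0318). Lpl deviated from its strain means in step with the stellate markers (r = 0.54 over 20 arrays, which also share array spread) and less so with the muscle markers (0.10). With the stellate marker mean as a covariate, NZO minus C3H was -0.57 (limma adjusted p = 0.221) and with the endothelial mean it was -0.62 (0.204); with the Kupffer cell mean it was -1.14 (0.0057). C3H minus B6 was called for Lpl with the stellate mean (0.97, limma adjusted p = 0.0198) and with the Kupffer cell mean (0.99; 0.0496), and so was C3H minus 129P2 (0.94 and 0.97; 0.0189 and 0.0392). Leaving out the 2 arrays with most muscle marker signal gave -0.95 (limma adjusted p = 0.0502).

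Lipg, endothelial lipase, acts mainly on the phospholipids of HDL. Its 20 values ran from 6.63 to 7.88, and 1 of them, in 129P2 replicate 2, was dim. The means were 7.57 ± 0.23 in B6, 7.39 ± 0.36 in C3H, 7.33 ± 0.47 in 129P2 and 7.33 ± 0.39 in NZO (SD, n = 5). All 4 strains overlapped. The largest pairwise difference, 129P2 minus B6, was -0.24, with a 95% interval of -0.66 to 0.18 (limma adjusted p = 0.572).

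Angptl4 is a secreted inhibitor that inactivates lipoprotein lipase and is a known target of the fatty acid-sensing PPAR receptors. Its NZO values were 9.78, 9.77, 9.53, 9.70 and 9.27. In B6 they were 9.25, 9.68, 8.94, 8.5 and 8.48. Among B6 animals, 1 lay within the NZO range and the other 4 below it. C3H animals ran from 8.98 to 9.59 and 129P2 animals from 8.49 to 9.74, overlapping both.

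NZO held the highest mean of Angptl4, 9.61 ± 0.21, followed by C3H (9.34 ± 0.32), 129P2 (9.27 ± 0.48) and B6 (8.97 ± 0.51; SD, n = 5). NZO minus B6 was 0.64 ± 0.22 (SE, 95% interval 0.18 to 1.09), which did not pass the threshold (limma adjusted p = 0.0663). It passed without B6 replicate 2 (0.82, limma adjusted p = 0.0134), without 129P2 replicate 4, which changes only the shared spread (0.0346), and after quantile normalization (0.70; 0.0419). The other 5 differences ran up to 0.37 (C3H minus B6, -0.09 to 0.82, limma adjusted p = 0.297).

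Scarb1 encodes SR-BI, the receptor through which hepatocytes take cholesteryl esters from HDL without taking in the particle. The NZO values were 10.56, 10.70, 10.42, 10.52 and 10.45. In B6 they were 11.31, 11.04, 11.13, 11.33 and 11.29, and in C3H 11.45, 11.01, 11.16, 11.40 and 11.31. The highest NZO animal was thus below the lowest B6 and C3H animals. In 129P2 they were 11.64, 11.11, 11.47, 11.45 and 11.66, again all above NZO. B6, C3H and 129P2 overlapped each other.

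The mean Scarb1 level of NZO was 10.53 ± 0.11, that of B6 11.22 ± 0.13, that of C3H 11.26 ± 0.18 and that of 129P2 11.46 ± 0.22 (SD, n = 5). NZO minus B6 was -0.69 (95% interval -0.90 to -0.47, limma adjusted p = 9.53e-05), or 62.2% of the B6 signal. NZO minus C3H was -0.73 (-0.95 to -0.52, limma adjusted p = 4.62e-05), or 60.2%. NZO minus 129P2 was -0.93 (-1.15 to -0.72, limma adjusted p = 1.75e-06), or 52.4%. Each has an SE of 0.10. Of the 8 genes, Scarb1 was the only one called as lower in all 3 NZO comparisons, as 1.22% of all tested genes were.

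The other strains did not differ in Scarb1 at the threshold. C3H minus B6 was 0.05 (-0.17 to 0.26, limma adjusted p = 0.802), C3H minus 129P2 was -0.20 (-0.42 to 0.02, adjusted p = 0.361) and 129P2 minus B6 was 0.25 (0.03 to 0.46, adjusted p = 0.196). The last was called without 129P2 replicate 2, the lowest 129P2 animal (0.34, limma adjusted p = 0.0390).

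The lower Scarb1 level of NZO kept its call in all 35 other settings. Within strains, the correlation of Scarb1 over 20 arrays was 0.52 with the hepatocyte marker mean, 0.32 with the Kupffer cell mean and 0.18 with the endothelial mean. Endothelial markers were lower in NZO in the same comparisons. Of the other strains, only C3H replicate 3 (8.67) had an endothelial mean within the NZO range. The differences adjusted for that mean therefore rest on the slope within strains. With the endothelial mean as a covariate, the NZO differences from B6, C3H and 129P2 were -0.60, -0.66 and -0.86 (limma adjusted p = 0.0239, 0.00401 and 0.000477). With the stellate marker mean they were -0.70, -0.74 and -0.94 (limma adjusted p = 0.0132, 0.000524 and 0.000375). Among the 12 tested genes beside Scarb1 on chromosome 5, 6 on each side and chosen after values were seen, 1 was called between NZO and B6 (Tmem132c), 0 between NZO and C3H, and 1 between NZO and 129P2 (Slc15a4). Over all tested genes, 10.3%, 6.6% and 8.9% were called. Where Scarb1 was not called, 1 neighbour was called in C3H minus B6, 1 in 129P2 minus B6 and 0 in C3H minus 129P2.

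**Figure D3:**
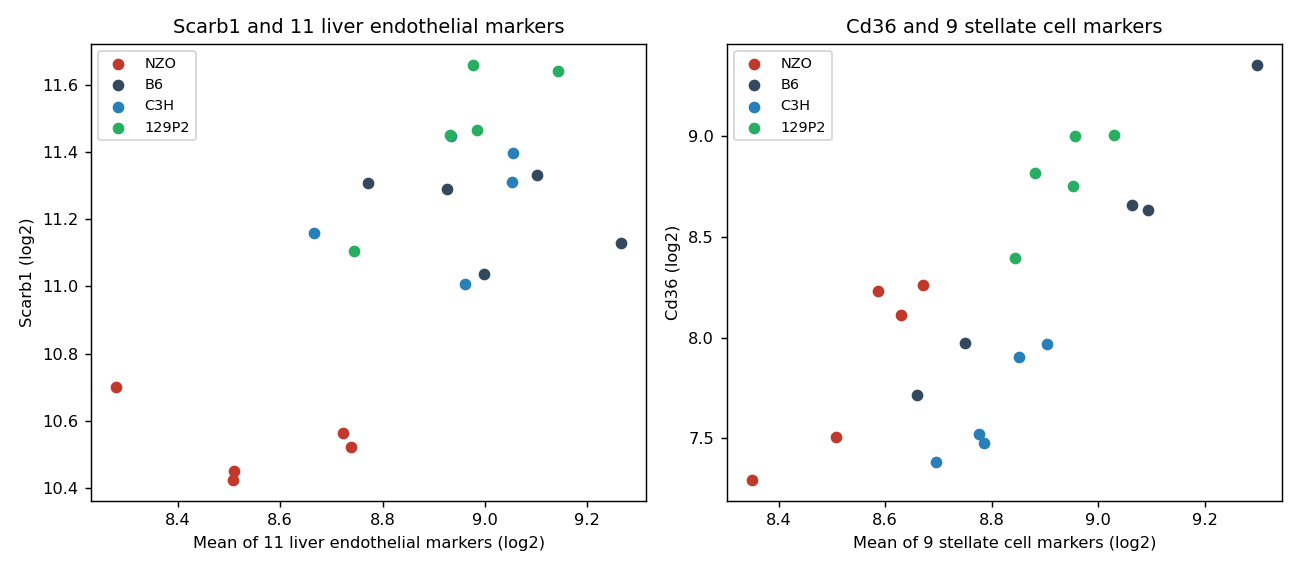
Each animal's Scarb1 level against the mean of 11 liver endothelial markers, and its Cd36 level against the mean of 9 stellate cell markers, all in log2 units and coloured by strain. NZO lies low in Scarb1, at endothelial marker means of 8.28 to 8.74. Of the other strains, only C3H replicate 3 (8.67) falls within that range. Cd36 rises with the stellate marker mean within each strain, and C3H lies low in Cd36 for its marker level.

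The genes whose levels followed Scarb1 most closely over the 20 arrays were Zfp652 (r = 0.93; 0.68 within strains), Bmp4 (0.91; 0.76) and Abcb10 (0.90; 0.58). These correlations include the strain difference and, like those within strains, come from arrays that share their spread. Bmp4 encodes a bone morphogenetic protein and Abcb10 a mitochondrial transporter. Among the other genes of the set, Lcat deviated from its strain means most like Scarb1 (r = 0.70), and Pltp did so with 0.55. Pdzk1, the adaptor that holds SR-BI in the hepatocyte membrane, did not differ between NZO and the others at the threshold (-0.02, -0.15 and -0.05, limma adjusted p = 0.922, 0.478 and 0.863).

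Cd36 is a membrane receptor for long-chain fatty acids and oxidised lipoproteins, and in liver it is carried by endothelial cells and macrophages as well as hepatocytes. Cd36 has several annotated starts. The 250 bases before 1 of them are shown because Cd36 is the called receptor of the set with a start in the RefSeq promoter table. They lie at chr5:17835897-17836146 in GRCm38.p6 and are read 5′ to 3′ on the minus strand. The capitals mark letter matches to TGACCT, which is the nuclear receptor half-site AGGTCA read on the other strand, and to the CCAAT box.
Cd36: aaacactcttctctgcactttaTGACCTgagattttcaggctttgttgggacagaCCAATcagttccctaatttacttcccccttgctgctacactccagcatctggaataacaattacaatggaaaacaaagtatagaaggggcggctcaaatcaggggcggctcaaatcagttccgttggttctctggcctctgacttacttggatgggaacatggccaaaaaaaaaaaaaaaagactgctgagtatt

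The half-site letters begin 228 bases before the start and the CCAAT letters 195 bases before it. On either strand, AGGTCA occurs in 14% and CCAAT in 33.8% of the 250 upstream bases of the 32851 mouse windows searched. TATAAA, which 12.4% of windows hold, has no match here. These are matches of letters, not measured sites, and the arrays do not tell which start was used.

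The Cd36 values in C3H were 7.47, 7.97, 7.38, 7.52 and 7.90, and in NZO 8.26, 7.29, 7.50, 8.23 and 8.11. In 129P2 they were 9.0, 8.40, 8.75, 9.0 and 8.82. All 5 animals of 129P2 were above all animals of C3H and NZO. B6 gave 7.72, 7.97, 9.36, 8.66 and 8.64, the widest spread of the 4 strains, and overlapped each of the others.

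The strain means of Cd36 rose from 7.65 ± 0.27 in C3H through 7.88 ± 0.45 in NZO and 8.47 ± 0.64 in B6 to 8.79 ± 0.25 in 129P2 (SD, n = 5). C3H minus 129P2 was -1.14 ± 0.24 (SE, 95% interval -1.63 to -0.65, limma adjusted p = 0.00372), or 45.3% of the 129P2 signal. NZO minus 129P2 was -0.91 (-1.40 to -0.42, limma adjusted p = 0.0140), or 53.1%. C3H minus B6 was -0.82 (-1.31 to -0.33, limma adjusted p = 0.0340), or 56.8%, with overlapping values. NZO and C3H (0.23; -0.26 to 0.72), NZO and B6 (-0.59; -1.08 to -0.10) and 129P2 and B6 (0.33; -0.16 to 0.82) did not differ at the threshold, with adjusted p of 0.756, 0.122 and 0.498 by limma.

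The difference between C3H and 129P2 kept its call in all 35 other settings. The difference between C3H and B6 did not: its limma adjusted p was 0.106, 0.0907 and 0.0732 without B6 replicates 3, 4 and 5, and 0.0742, 0.0970 and 0.0778 without C3H replicates 1, 3 and 4. That between NZO and 129P2 had a limma adjusted p of 0.0514 without NZO replicate 2. Without B6 replicate 1, NZO minus B6 was called (-0.78, limma adjusted p = 0.0328).

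Of the marker lists, Cd36 followed the stellate and endothelial ones most closely. Within strains, its correlation over 20 arrays was 0.95 with the stellate marker mean, 0.79 with the endothelial mean, 0.62 with the Kupffer cell mean and 0.71 with array spread, and these means share their arrays. It was negative with the cholangiocyte (-0.54), adipocyte (-0.34), exocrine pancreas (-0.33) and neutrophil (-0.23) means. With the HDL and fatty acid uptake lists read below it was 0.75 each. Of the other strains, only B6 replicate 1 (8.66) had a stellate mean within the NZO range (8.35 to 8.67). NZO differences adjusted for that mean, here and for other genes, therefore rest on the slope within strains, as they do with the endothelial mean. With the stellate mean as a covariate, NZO minus 129P2 became 0.10 (limma adjusted p = 0.690), NZO minus B6 became 0.53 (0.0244) and NZO minus C3H 0.90 (6.11e-06). In the same fit C3H stayed below 129P2 (-0.80, limma adjusted p = 5.67e-06) and B6 (-0.36; 0.0278), and 129P2 minus B6 was 0.43 (0.00276). With the endothelial mean, NZO minus 129P2 was -0.10 (limma adjusted p = 0.771) and NZO minus C3H 0.996 (0.00380). With the Kupffer cell mean, the call of C3H minus B6 was lost (-0.40, limma adjusted p = 0.460). With array spread as a covariate, C3H minus B6 was -0.39 (limma adjusted p = 0.327) and 129P2 minus B6 was 0.73 (0.0289).

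The genes most like Cd36 over the 20 arrays were Ano6 (r = 0.90; 0.84 within strains), Pdgfrb (0.90; 0.81) and Lrrc8c (0.87; 0.71). Pdgfrb, a platelet-derived growth factor receptor, is also 1 of the 9 stellate markers. Of 12 tested neighbours of Cd36 on chromosome 5, chosen after values were seen, 4 were called between C3H and 129P2 (Crot, Tmem243, Pclo and Phtf2), 3 between NZO and 129P2 (Abcb4, Hgf and Gsap) and 1 between C3H and B6 (Crot). Where Cd36 was not called, 5 were called between NZO and C3H, 2 between NZO and B6 and 2 between 129P2 and B6. In the same order, 5.03%, 8.9%, 8.05%, 6.6%, 10.3% and 6.19% of all tested genes were called. For Lpl the closest genes were Zdhhc14 (r = 0.79; 0.61 within strains), Ttc3 (0.77; 0.71) and Agxt (0.76; 0.55). Of the 12 neighbours of Lpl on chromosome 8, 0 were called between NZO and C3H, and 2 or 3 in each other comparison.

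Lrp1 is a large endocytic receptor that clears chylomicron remnants together with the LDL receptor. Its 20 values lay between 11.26 and 11.92. The means were 11.74 ± 0.12 in B6, 11.71 ± 0.16 in 129P2, 11.69 ± 0.18 in NZO and 11.50 ± 0.24 in C3H (SD, n = 5), and all strains overlapped. C3H minus B6 was the largest difference, -0.25 (95% interval -0.47 to -0.02, limma adjusted p = 0.167), and it was called without C3H replicate 2 (-0.33, limma adjusted p = 0.0453). NZO differed from B6 by -0.05 (-0.28 to 0.17) and from 129P2 by -0.02 (-0.25 to 0.20).

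Lcat, secreted by hepatocytes, esterifies the cholesterol of HDL. NZO animals had 12.54, 12.70, 12.58, 12.55 and 12.71, and B6 animals 12.40, 12.35, 12.33, 12.40 and 12.32. All NZO animals were above all B6 animals. C3H ran from 11.96 to 12.63 and 129P2 from 12.24 to 12.80, across both. NZO minus B6 was 0.25 ± 0.11 (SE, 95% interval 0.02 to 0.48), short of the threshold in the fit over all strains (limma adjusted p = 0.158). The SD was 0.03 in B6 and 0.08 in NZO, but 0.29 in C3H and 0.22 in 129P2, and with only NZO and B6 in the fit the adjusted p was 0.0194 by limma. The largest of the other differences, 129P2 minus B6, was 0.22 (-0.01 to 0.45, limma adjusted p = 0.293).

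Pltp transfers phospholipids to HDL as triglyceride-rich particles are hydrolysed. Its means were 9.998 ± 0.28 in B6, 9.80 ± 0.05 in NZO, 9.73 ± 0.44 in 129P2 and 9.60 ± 0.17 in C3H (SD, n = 5). The 5 NZO animals lay within 9.73 to 9.84, whereas 129P2 animals ran from 9.11 to 10.29. C3H minus B6 was -0.40 (95% interval -0.73 to -0.08, limma adjusted p = 0.119) and NZO minus B6 was -0.20 (-0.53 to 0.12, adjusted p = 0.428). With the endothelial marker mean as a covariate, NZO minus C3H was called for Pltp (0.58, limma adjusted p = 0.0333). Lcat and Pltp deviated together within strains (r = 0.57 over 20 arrays), and the lowest of the 28 pairwise correlations was that of Angptl4 and Cd36 (-0.33).

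The other genes of these pathways were read from 7 lists. Over all tested genes, NZO was called lower in 6.64%, 3.09% and 4.61% against B6, C3H and 129P2. In either direction, the shares were 10.3%, 6.6% and 8.9% for those comparisons. They were 8.05% and 6.19% for C3H and 129P2 against B6, and 5.03% between C3H and 129P2. Whether a list exceeded these shares was not tested. Against B6, NZO was lower in 5 of 12 tested genes that control the lipases and higher in 0, with a median difference of -0.11 beside 0.01 over all genes. The 4 largest were Apoa5 (-0.50), an activator of lipoprotein lipase, Apoc4 (-0.37), Furin (-0.29), a protease that cleaves lipases and angiopoietin-like proteins, and Gpihbp1 (-0.29 ± 0.07, SE), the capillary anchor of lipoprotein lipase. Leaving out 1 animal ended the call of Apoa5 in 13 of 20 fits and that of Furin in 7, with limma adjusted p up to 0.162 and 0.124. Gpihbp1 was also lower in NZO than in 129P2 (-0.28, limma adjusted p = 0.0139, or 0.0528 without NZO replicate 3), where Sel1l, needed for the secretion of lipoprotein lipase, was higher in NZO (0.49 ± 0.11, SE). Endothelial and stellate markers were lower in NZO in the same comparisons. Of the 5 calls against B6, 0 held with the endothelial marker mean as a covariate and 0 with the stellate mean by limma; in the first fit Apoa5 was 0.06 (limma adjusted p = 0.894) and Gpihbp1 -0.34 (0.0576). Between NZO and C3H, where Lpl was called, limma called 0 of the 12 genes (3 at an unadjusted p under 0.05). Apoc4 was lower in C3H (-0.40) and 129P2 (-0.51) than in B6 as well.

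Of 15 tested genes of remnant and LDL uptake, NZO was higher in 1 and lower in 2 against B6 and against C3H, and higher in 1 and lower in 4 against 129P2. Sort1, the sorting receptor sortilin, was lower in NZO in the comparisons with B6, C3H and 129P2 (-0.67, -0.63 and -0.67; SE 0.14, limma adjusted p = 0.00332, 0.00743 and 0.00375). Dab2, an endocytic adaptor, was lower by a like amount (-0.56, -0.55 and -0.50; SE 0.12, limma adjusted p = 0.00435, 0.00572 and 0.0100). With the endothelial marker mean as a covariate neither gene was called: Sort1 was -0.56, -0.53 and -0.56 (limma adjusted p = 0.157, 0.0720 and 0.0691) and Dab2 was -0.10, -0.17 and -0.10 (limma adjusted p = 0.717, 0.290 and 0.580). With the stellate mean, Sort1 kept its calls against C3H and 129P2 but not against B6, and Dab2 kept none. Vldlr, the VLDL receptor, was highest in 129P2: 129P2 minus B6 was 0.91, C3H minus 129P2 was -0.96 and NZO minus 129P2 was -0.55 (SE 0.11, limma adjusted p = 3.48e-06, 1.83e-06 and 0.00133), with Vldlr dim on 2 arrays of B6 and 2 of C3H. It was also the gene called higher in NZO (mean 7.09) than in B6 (6.72) and C3H (6.67). Leaving out 1 animal ended those calls in 5 and 2 of 20 fits, and the endothelial covariate ended the call against B6. The median of the list was -0.17 against B6, within 0.01 of 0 against C3H and -0.02 against 129P2.

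Of 12 tested genes of HDL formation and uptake, 1 was called between NZO and each other strain. Pla2g7, which encodes an HDL- and LDL-bound phospholipase and is made largely by macrophages, was higher in NZO than in B6 (1.15 ± 0.17, SE, limma adjusted p = 7.60e-05) and C3H (1.38; 8.23e-06), and 129P2 too was above B6 (0.74) and C3H, with C3H minus 129P2 at -0.97. It was dim on 1 C3H array. Of the 12 macrophage markers, 4 were lower in C3H than in B6 and 2 lower than in 129P2. With the Kupffer cell and macrophage mean as a covariate Pla2g7 was 1.34 in NZO minus B6 and 1.18 in NZO minus C3H (limma adjusted p = 2.20e-08 and 2.27e-07). Apom, the HDL apolipoprotein that carries sphingosine-1-phosphate, was lower in C3H than in 129P2 (-0.49 ± 0.10, SE, limma adjusted p = 0.00301). The Apom call of NZO against 129P2 was lost with the endothelial marker mean as a covariate (-0.23, limma adjusted p = 0.255). The list's medians lay between -0.03 and 0.02 in the 3 NZO comparisons. Apoa1, the main HDL apolipoprotein, came nearest to a call in 129P2 minus B6 (-0.17, limma adjusted p = 0.0555), and Abca1, which loads it with lipid, in 129P2 minus B6 as well (-0.14; 0.496).

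**Figure D4:**
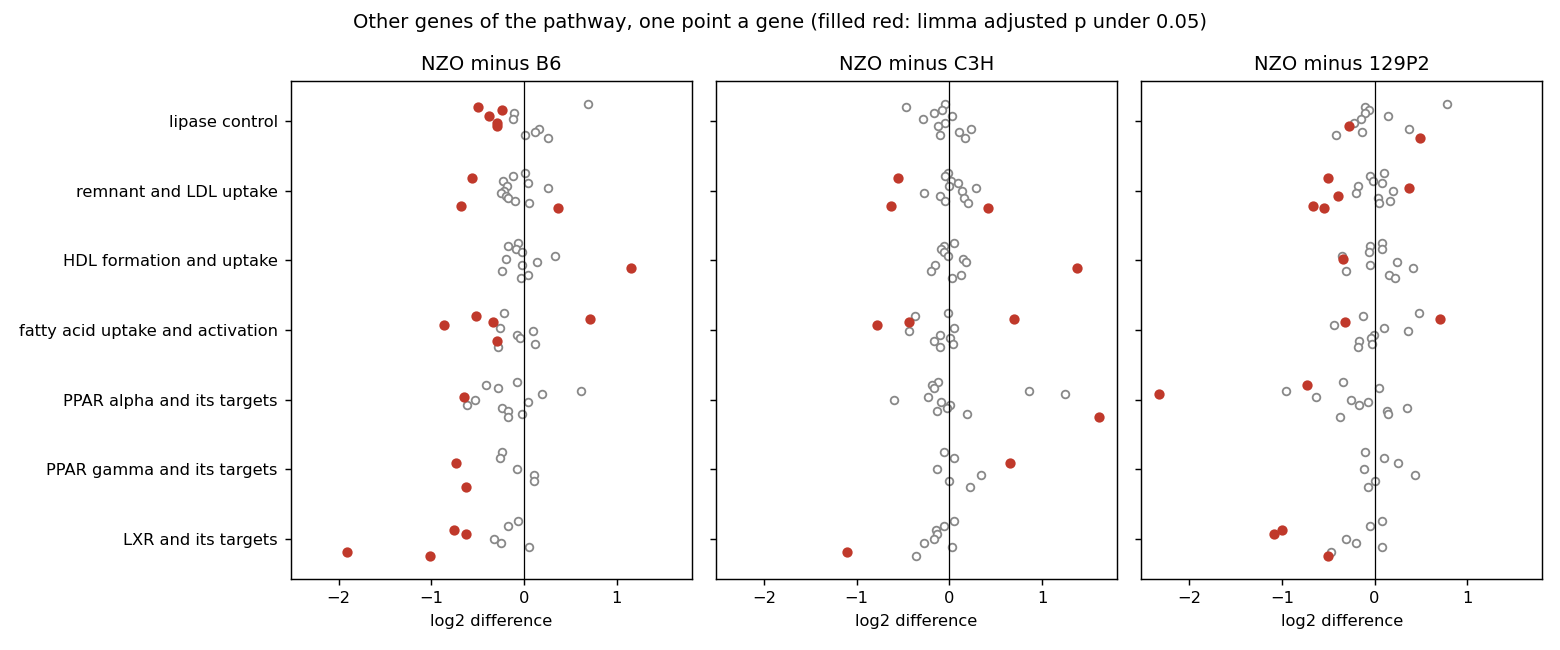
Log2 differences between NZO and each other strain for the tested genes of 7 lists, with 1 point for each gene; filled red points passed a limma adjusted p of 0.05. The HDL list has 1 called gene in each panel (Pla2g7 higher in NZO in the first 2, Apom lower in the third), and the called LXR genes all lie below 0.

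Of 12 tested genes of fatty acid uptake and activation, NZO was higher in 1 and lower in 4 against B6, higher in 1 and lower in 2 against C3H, and higher in 1 and lower in 1 against 129P2. The higher gene was Cav1, the coat protein of caveolae, at 0.71, 0.69 and 0.70 (SE 0.12, limma adjusted p = 0.000328, 0.000491 and 0.000385), the reverse of the endothelial markers. Fabp1, the liver fatty acid-binding protein, was lower in NZO at -0.34, -0.43 and -0.32 (SE 0.08, limma adjusted p = 0.00946, 0.00153 and 0.0139), the last at 0.0515 without 129P2 replicate 3. Fabp2 was lower than in B6 (-0.86 ± 0.21, SE, limma adjusted p = 0.00993). With the endothelial marker mean as a covariate 0 of the 4 lower calls against B6 held by limma, and 0 with the stellate mean: Fabp2 was -0.44 (limma adjusted p = 0.454) in the first fit and -0.14 (0.901) in the second, and Fabp1 was -0.24 (0.293) and -0.20 (0.523). Cav1 kept its 3 calls in both. Fabp1 kept its call against C3H in all 35 other settings (limma adjusted p up to 0.0408). Its call against 129P2 was lost with either marker mean. Between C3H and 129P2, where Cd36 differed most, 0 of the 12 genes were called by limma (2 at an unadjusted p under 0.05).

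Angptl4 and Cd36 are known PPAR targets, so the lists of those receptors were read beside them. Of 13 tested PPAR alpha genes, C3H was lower than 129P2 in 4 and higher in 0, with a median of -0.17 beside 0.01 over all genes. NZO, where Angptl4 had its highest mean, was lower in 2 and higher in 0 of these genes against 129P2 (median -0.25), lower in 1 and higher in 0 against B6 (-0.18), and higher in 1 and lower in 0 against C3H (-0.09). The 3 lower NZO calls were lost with the endothelial mean as a covariate. 129P2 was higher than B6 in 2 and lower in 1 (-0.01), and C3H lower than B6 in 1 and higher in 0 (-0.22). Cyp4a14, a fatty acid hydroxylase, was dim on all 5 C3H arrays and was at least 9.61-fold higher in 129P2 (a bound against the 40th percentile of those arrays, limma adjusted p = 0.000560). Vnn1, a pantetheinase, was lower in C3H than in 129P2 (-1.99 ± 0.25, SE, limma adjusted p = 8.78e-06), B6 (-1.79; 3.54e-05) and NZO, with NZO minus C3H at 1.61 (0.000113), and it was dim on 3 C3H arrays. B6 replicate 3, the highest B6 animal for Lpl and Cd36, also had the highest PPAR alpha list mean of its strain, 10.40 against 9.25 to 9.51 in the other 4. The same animal had the highest B6 means of the stellate (9.30), endothelial (9.27) and Kupffer cell markers (9.47). Its PPAR gamma list mean (7.80) and array spread (2.48) were the highest of B6 too. Which of these goes with Lpl and Cd36 was not tested.

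Of 7 tested PPAR gamma genes, 2 were lower in NZO, C3H and 129P2 than in B6 and 0 were higher. Pparg itself was at -0.63, -0.86 and -0.56 (SE 0.15, limma adjusted p = 0.00874, 0.000749 and 0.0277) and Fitm1, a lipid droplet protein, at -0.73, -1.39 and -0.98. The Pparg difference of 129P2 lost its call in 5 of the 20 fits without 1 animal, with limma adjusted p up to 0.0978. Both NZO calls were lost with the endothelial marker mean as a covariate (Pparg -0.33, Fitm1 -0.64, limma adjusted p = 0.43 and 0.232) and with the stellate mean (-0.21 and -0.79; 0.767 and 0.180).

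LXR, a sterol-sensing receptor, has Srebf1, Abcg5, Abcg8 and Scd1 among its known targets, and Lpl and Pltp as well. Of 9 tested genes of that list, NZO was lower in 4 against B6, 1 against C3H and 3 against 129P2, and higher in 0; the medians were -0.32, -0.15 and -0.31 beside medians over all genes within 0.01 of 0. Scd1, the stearoyl-CoA desaturase, was -1.91 ± 0.25 (SE, limma adjusted p = 1.42e-05) against B6 and Srebf1, which drives lipid synthesis, -1.01 ± 0.12 (3.35e-06). The sterol exporters Abcg5 and Abcg8 were -0.9997 and -1.09 against 129P2 (limma adjusted p = 4.59e-05 and 7.38e-06). Lower calls against B6 were not confined to NZO. C3H was lower than B6 in 4 genes (Srebf1, Abcg5, Abcg8 and Scd1) and higher in 0. 129P2 was lower than B6 in 2 (Srebf1 and Scd1) and higher in 1 (Abcg8). The Scd1 call of C3H and the Abcg8 call of 129P2 were lost in 14 and 12 of 20 fits without 1 animal. With the endothelial marker mean as a covariate, 2 of the 4 NZO calls against B6, 0 of 1 against C3H and 2 of 3 against 129P2 held. Those lost were Abcg5 and Abcg8 against B6 (-0.63 and -0.47, limma adjusted p = 0.0929 and 0.192), Scd1 against C3H (-0.89; 0.0779) and Srebf1 against 129P2 (-0.33; 0.169). Over the 7 lists, 55 of 80 calls held with each animal left out in turn and 25 did not.

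**Figure D5:**
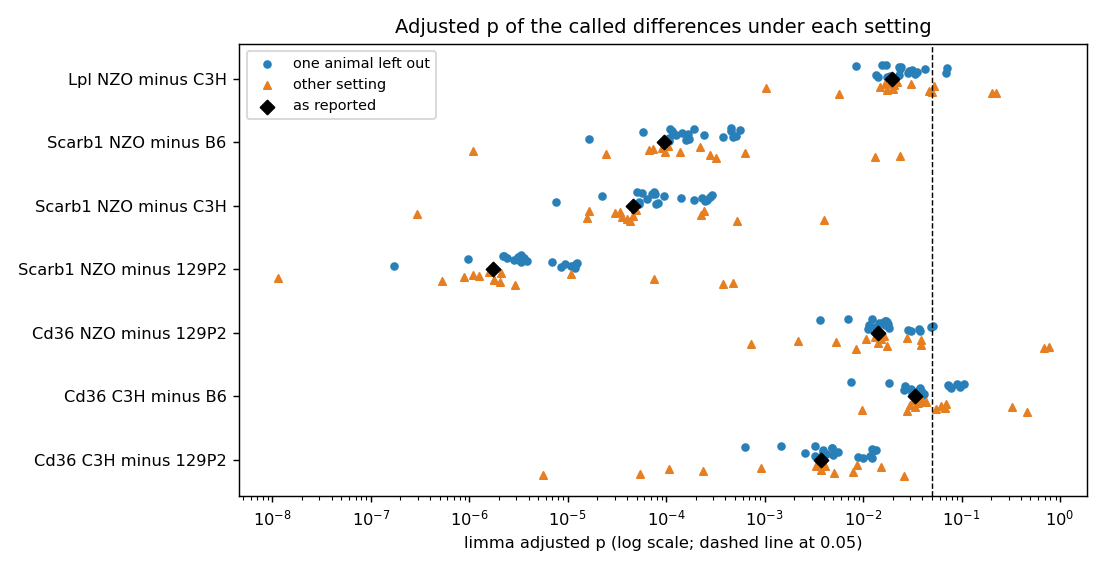
Limma adjusted p of the 7 called differences of the set, on a log axis, as reported (black diamonds), without 1 animal (blue circles, 20 each) and under other settings (orange triangles); the dashed line marks 0.05. The 3 Scarb1 differences and Cd36 between C3H and 129P2 stay left of the line at every setting, while the other 3 cross it.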

How the data were processed

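The deposited log2 values are probe-set signals that the authors made by robust multi-array average (RMA) in Affymetrix Expression Console, per the submitters' processing notes; versions and a genome build are not given in the sources used here. They were used as deposited. Genes were named from the platform annotation (21789 of 35556 probe sets had 1 symbol). Testing required 5 or more arrays above their own 40th percentile, which left 14190 of 19938 genes, all 8 measured members included. limma 3.58.1 in R 4.3.3 fitted 1 mean per strain to all 20 arrays (16 residual degrees of freedom) with an intensity trend. The fit was tested on simulated data. Animals are numbered in the order of the series. The genes of the set, the lists and the tests were chosen with earlier results of these data known. Of each list, the called genes with the largest differences, up to 4 a comparison, could be named, and for each gene past the F-test the 3 genes of highest correlation. Marker means as covariates and the removal of the 2 arrays of highest muscle signal were chosen after seeing the data. Promoter bases and gene order are from RefSeq (GRCm38.p6); of the 8 measured genes, 4 (Cd36, Lrp1, Lcat and Pltp) had a promoter window. The number of arrays limits the precision.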

Additional observations from a re-analysis of the deposited data

Results flagged for a closer look

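Of 32 groups of 5 animals (8 genes in 4 strains), 1 held a value far from the others by Dixon's test, and chance gives about 1 in 20. It was Lpl in NZO replicate 4, at 8.13, where the nearest NZO value was 8.74 and the highest 8.88, so the gap was 0.817 of the group's range and passed the critical value for 5 values. Without that animal NZO minus C3H was -0.84 (limma adjusted p = 0.0689).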

How the results depend on the processing

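No paired analysis was made, because each array came from a different mouse and the labels link no mice across strains. Of 7 called differences among the 8 genes, 4 kept their call under all 35 alternatives: Scarb1 in the 3 NZO comparisons and Cd36 in C3H minus 129P2. Without 1 animal, called members numbered 1 to 2 in NZO minus B6, in NZO minus C3H and in NZO minus 129P2, 0 to 2 in C3H minus B6, 0 to 1 in 129P2 minus B6, 1 to 1 in C3H minus 129P2 and 2 to 4 by the F-test.

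NZO minus B6 gave 2 called members, not 1, under quantile normalization, array weights, only the compared strains, removal of the 3 arrays of narrowest spread, and the stellate covariate. NZO minus C3H gave 1 under robust moderation and without the 2 arrays of highest muscle signal, and 3 with the endothelial covariate (Scarb1, Cd36 and Pltp, not Lpl). NZO minus 129P2 gave 1 with the endothelial or stellate covariate. C3H minus B6 gave 0 under robust moderation, with only the compared strains, with array spread as a covariate, and without the narrowest or the muscle-rich arrays, and 2 with array weights or the stellate covariate. 129P2 minus B6 gave 2 with array weights or without the narrowest arrays, and 1 with array spread or the stellate covariate. C3H minus 129P2 gave 2 with the stellate or Kupffer covariate. The 1 call of C3H minus B6 was Lpl, not Cd36, with the Kupffer covariate. The causes were not tested.

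Directions turned as follows. With equal medians, Scarb1 C3H minus B6 was -0.00079, and with quantile normalization Lpl 129P2 minus B6 was 0.0249. With array weights, NZO minus 129P2 was -0.0472 for Lipg, -0.0284 for Lcat and -0.0559 for Pltp, Lpl 129P2 minus B6 was 0.0044 and Lipg C3H minus 129P2 was -0.0377. With array spread as a covariate, Lrp1 NZO minus B6 was 0.037, Lipg NZO minus 129P2 -0.0095, Lpl 129P2 minus B6 0.10 and Lrp1 129P2 minus B6 0.0754. Without the narrowest arrays, Lipg was 0.0858 in NZO minus C3H, -0.11 in NZO minus 129P2 and -0.20 in C3H minus 129P2, Lcat and Pltp NZO minus 129P2 were -0.0758 and -0.11, and Lrp1 129P2 minus B6 was 0.0081. With the endothelial covariate, NZO minus B6 was 0.15 for Lpl, 0.11 for Lipg, 0.34 for Cd36, 0.25 for Pltp, 0.0588 for Apoa5 and 0.0757 for Ehhadh, Lipg NZO minus C3H was 0.23, Lpl NZO minus 129P2 0.13 and Lpl 129P2 minus B6 0.0144. With the stellate covariate, NZO minus B6 was 0.40 for Lpl, 0.53 for Cd36, 0.11 for Pltp and 0.11 for Ehhadh; NZO minus 129P2 was 0.38 for Lpl, -0.0075 for Lipg, -0.0056 for Angptl4 and 0.10 for Cd36; Lpl 129P2 minus B6 was 0.0268 and Angptl4 C3H minus 129P2 -0.0469. With the Kupffer covariate, Lpl 129P2 minus B6 was 0.0289 and Pltp C3H minus 129P2 0.10. Of these, only Cd36 NZO minus 129P2, Apoa5 and Ehhadh were called as reported. Leaving out 1 animal turned only differences that were not called. Lpl 129P2 minus B6 ran from -0.204 to 0.163. Lipg ran from -0.171 to 0.0777 in NZO minus C3H, -0.17 to 0.142 in NZO minus 129P2 and -0.109 to 0.202 in C3H minus 129P2. Lrp1 ran from -0.0982 to 0.00021 in NZO minus B6, -0.0686 to 0.0299 in NZO minus 129P2 and -0.0816 to 0.00813 in 129P2 minus B6. NZO minus 129P2 ran from -0.0542 to 0.086 for Lcat and -0.0956 to 0.199 for Pltp, and C3H minus 129P2 from -0.125 to 0.189 for Angptl4 and -0.294 to 0.000324 for Pltp.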
